A study of Mus musculus with 20 samples.

Results

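Expression of 10 genes of receptor tyrosine kinase signaling was followed: the platelet-derived growth factor (PDGF) receptors Pdgfra and Pdgfrb with their ligands Pdgfa, Pdgfb and Pdgfc, the hepatocyte growth factor receptor Met with its ligand Hgf, the receptor Axl with its ligand Gas6, and the collagen receptor Ddr1. They were taken by name from a list made with earlier results of these data known, and are 10 of the 45706 genes in the count tables. All 10 were found. They lie on chromosomes 5 (Pdgfra, Pdgfa and Hgf), 18 (Pdgfrb), 6 (Met), 7 (Axl), 17 (Ddr1), 15 (Pdgfb), 3 (Pdgfc) and 8 (Gas6) of mouse assembly GRCm38. All 10 passed the filter on low counts in tumors and 9 passed it in cells, where Hgf did not.

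RNA sequencing was performed on tumors of 18-week-old PyMT mice and on cultured PyMT tumor cells. PyMT mice express the polyoma middle T oncogene in the mammary epithelium and develop mammary carcinomas. MMTV-cre;Ctsd-/- tumors (n = 4), in which cathepsin D (CTSD, a lysosomal aspartic protease) is deleted where the MMTV promoter drives the cre recombinase, mainly in mammary epithelium, were compared with 4 control tumors, labelled wild type, from mice that keep at least an untargeted or a loxP-flanked Ctsd allele and are CTSD-competent. All mice had a C57BL/6N background. The stroma of the deleted tumors keeps its Ctsd gene. The cells were spontaneously immortalized Ctsd+/+ and Ctsd-/- tumor cells, the latter from an MMTV-cre;Ctsd-/- mouse, kept in medium with 1% FCS for 10 days (1% FCS) or for 12 weeks (1% FCS LT), with 3 samples in each of the 4 groups. Each genotype is represented by 1 line of cells, so that genotype and line cannot be told apart, and the p-values measure only the spread between samples of these lines. The labels also carry an LR identifier of unstated meaning. It is shared by all control tumors and differs in all MMTV-cre;Ctsd-/- tumors, so that it cannot be told apart from the tumor genotype, whereas in cells 8 of 12 samples (2 per group) share one identifier. The other identifiers each occur at 1 culture time only. One is that of replicate 1 of both genotypes in 1% FCS, and one that of replicate 3 of both genotypes in 1% FCS LT.

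Between 49725437 and 64291587 counts per tumor and between 33622831 and 40239762 counts per cell sample fell on genes. Levels are given as counts scaled to the size of each library (CPM), which makes libraries of different size comparable, and as CPM per kilobase of exon (RPKM) where genes are compared with each other. Ctsd itself checked the labels. It had a mean of 921 CPM in MMTV-cre;Ctsd-/- tumors against 2198 in control tumors (log2 fold change -1.25 ± 0.38 SE, adjusted p = 0.463 by edgeR, n = 4 per group). The groups of tumors did not overlap in Ctsd. In cells the mean of Ctsd was 155 against 2775 CPM in 1% FCS and 129 against 1730 CPM in 1% FCS LT, with no overlap between genotypes. The epithelial markers Epcam and Krt8 were present in every sample. The 3 samples of Ctsd+/+ cells in 1% FCS stood apart from the other 9 cell samples, with 1098 to 2240 CPM summed over 10 epithelial markers against 6990 to 14820 CPM elsewhere, and with 38430 to 71520 CPM summed over 11 mesenchymal markers against 8826 to 27560 CPM.

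Receptor tyrosine kinases span the plasma membrane, pair up when their ligand binds outside the cell and then phosphorylate each other inside it. The phosphorylated tails bind adaptor proteins that pass the signal on, among others, to phosphatidylinositol 3-kinase (PI3K) and to the RAS-ERK cascade. PDGF receptors are best known from fibroblasts, pericytes and other mesenchymal cells, to which epithelial and endothelial cells supply PDGF ligands. MET is typical of epithelial cells and receives HGF from mesenchymal cells. AXL binds GAS6 bound to the phosphatidylserine of dying cells and is a frequent feature of mesenchymal-like carcinoma cells. DDR1 differs from the others in that its ligand is collagen of the extracellular matrix.

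The sequences just upstream of 4 of these genes are shown because the difference of their genotype differences between the short and the long culture was called, as described below. For Gas6 that call depended on which samples entered. RefSeq windows on GRCm38.p6 were found for 8 of the 10 genes. The 250 bases before the transcript start are printed 5′ to 3′ on the strand of the gene. They come from chr5:75152001-75152250 (plus strand), chr7:25788734-25788983 (minus strand), chr3:81036166-81036415 (plus strand) and chr8:13494536-13494785 (minus strand). Capitals mark any match, on either strand, to the cyclic AMP response element (CRE) TGACGTCA, its part TGACG, the AP-1 site TGANTCA, the TEAD site GGAATG or the GC box GGGCGG. Every CRE also holds TGACG on both strands.
Pdgfra: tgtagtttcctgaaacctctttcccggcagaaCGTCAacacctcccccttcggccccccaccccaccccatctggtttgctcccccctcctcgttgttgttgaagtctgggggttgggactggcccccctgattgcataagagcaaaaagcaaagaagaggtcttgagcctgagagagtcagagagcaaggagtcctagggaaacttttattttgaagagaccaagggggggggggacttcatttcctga
Axl: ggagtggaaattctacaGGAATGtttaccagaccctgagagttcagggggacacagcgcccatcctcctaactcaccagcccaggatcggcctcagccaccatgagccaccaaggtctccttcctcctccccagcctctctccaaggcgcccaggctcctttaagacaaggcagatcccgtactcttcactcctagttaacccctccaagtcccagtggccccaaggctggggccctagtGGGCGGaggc
Pdgfc: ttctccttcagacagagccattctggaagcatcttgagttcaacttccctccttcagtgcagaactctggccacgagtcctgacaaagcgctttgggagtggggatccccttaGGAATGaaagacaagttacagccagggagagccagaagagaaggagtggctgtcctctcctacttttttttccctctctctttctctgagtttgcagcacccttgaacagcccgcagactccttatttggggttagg
Gas6: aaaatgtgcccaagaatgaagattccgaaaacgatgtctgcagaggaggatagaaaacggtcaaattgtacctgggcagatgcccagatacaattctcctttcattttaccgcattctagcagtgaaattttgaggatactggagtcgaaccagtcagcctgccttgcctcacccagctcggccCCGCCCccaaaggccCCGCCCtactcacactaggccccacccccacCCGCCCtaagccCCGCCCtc

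The 4 windows did not share one of these motifs. GC boxes were found 4 times upstream of Gas6 and once upstream of Axl, and 32.7% of all 32851 windows of the same length hold at least one. One TEAD site was found for each of Axl and Pdgfc (12.6% of all windows), and TGACG once for Pdgfra (17.8% of all windows). None of the 4 windows held the letters of the whole CRE (1.55% of all windows) or of the AP-1 site (6.75% of all windows). The GC content of the 250 bases was 54.4% for Pdgfra, 60% for Axl, 50.8% for Pdgfc and 54.8% for Gas6, where the median of all windows was 52.4%.

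Per kilobase of exon, the order of the genes differed between tumors and cells. Gas6 ranked first in both groups of tumors, with 45.8 RPKM in control and 46.5 RPKM in MMTV-cre;Ctsd-/- tumors, and its samples did not overlap those of the next gene, Ddr1 (15.6 and 17.0 RPKM). From rank 2 to 9 in tumors each gene overlapped its neighbor in the order, whereas genes farther apart could be separate, such as Ddr1 (9.26 to 22.0 RPKM) and Pdgfra (0.726 to 2.35 RPKM) in control tumors. Hgf came last, at 0.158 and 0.263 RPKM. In cells Axl ranked first in all 4 groups without overlapping the next gene, with 345 RPKM in Ctsd+/+ and 263 RPKM in Ctsd-/- cells in 1% FCS, and 139.6 and 324 RPKM in 1% FCS LT. Second was Ddr1 in 3 of the 4 groups (53.0 to 90.6 RPKM), while in Ctsd+/+ cells in 1% FCS Pdgfrb (85.5 RPKM) and Ddr1 (68.7 RPKM) overlapped. Pdgfrb thus ranked second there, but ninth of 10 in Ctsd-/- cells in 1% FCS (0.0338 RPKM) and in Ctsd+/+ cells in 1% FCS LT (0.0563 RPKM). Tumors and cells were scaled separately and were not tested against each other.

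**Figure D1:**
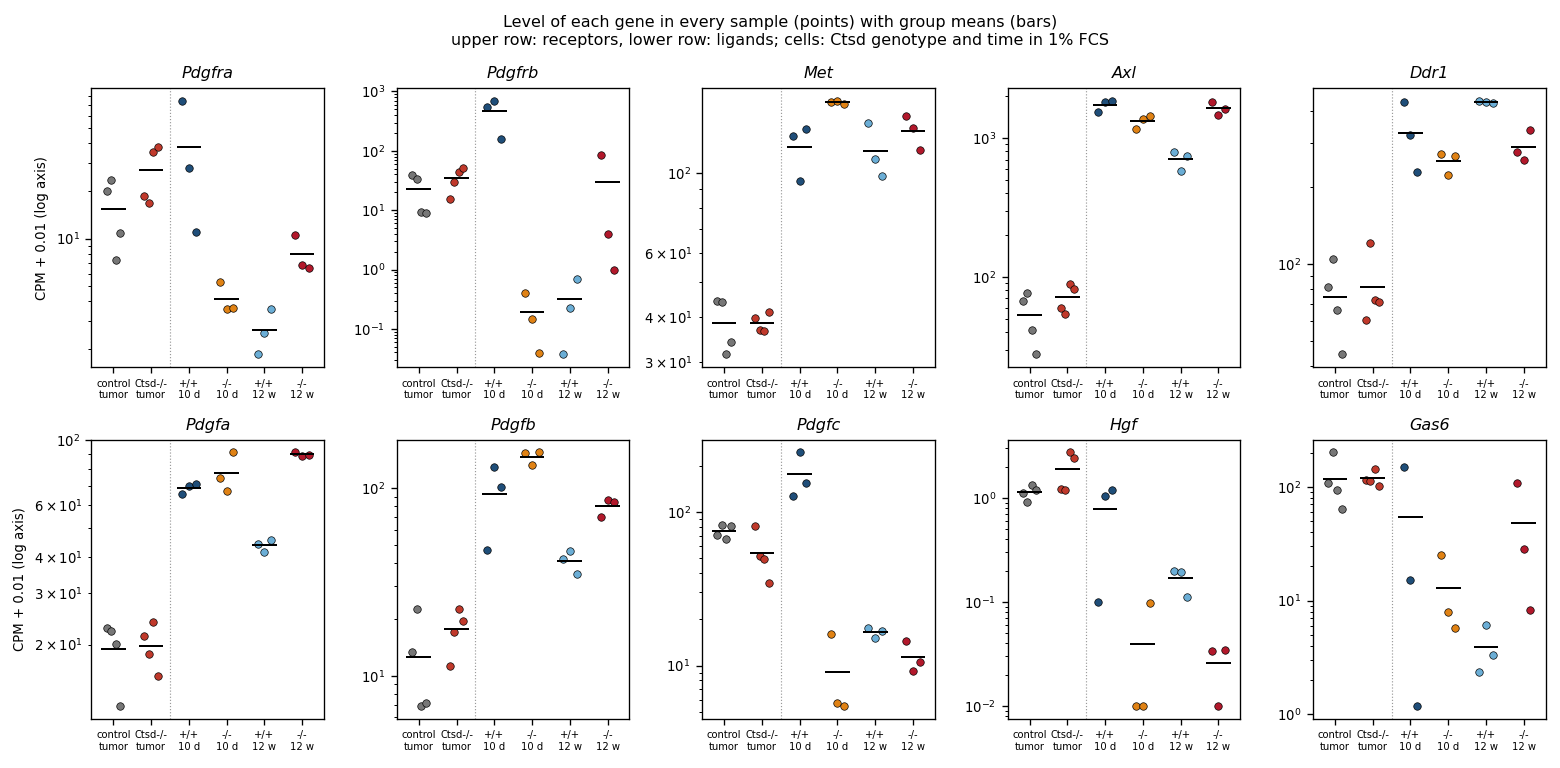
Level of the 5 receptors (upper row) and the 5 ligands (lower row) in every sample, as CPM with 0.01 added, on a log axis. Points are samples and bars are group means; the dotted line separates the tumors from the cells, which are named by Ctsd genotype and time in 1% FCS (10 days or 12 weeks). Pdgfra, Pdgfrb and Pdgfc were highest in Ctsd+/+ cells at 10 days among the cells, and Axl and Pdgfa were lowest in Ctsd+/+ cells at 12 weeks.

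To see how the genotypes of cells compare at each culture time and whether the genotype difference changed with time, the 12 cell samples were fitted together. A gene was called higher or lower at an adjusted p under 0.05 with an absolute log2 fold change over 1. In 1% FCS, 3 of the 9 tested members were called lower in Ctsd-/- than in Ctsd+/+ cells (Pdgfra, Pdgfrb and Pdgfc), where 14.6% of all 15178 tested genes were, and 0 were called higher, where 10.3% of all genes were. Of the members with higher values 2 had an unadjusted p under 0.05 in edgeR, and DESeq2 and limma-voom likewise called 0 higher. After 12 weeks the balance was the other way around. There 4 members were called higher in Ctsd-/- cells (Pdgfra, Pdgfrb, Axl and Pdgfa; 9.24% of all genes) and 0 were called lower (10.1% of all genes), with 1 lower at an unadjusted p under 0.05 in edgeR and 0 calls by DESeq2 and limma-voom. The difference of the genotype differences, 1% FCS LT against 1% FCS, was called higher for 5 members (Pdgfra, Pdgfrb, Axl, Pdgfc and Gas6; 11.0% of all genes) and lower for 0 (8.12% of all genes, with 0 members at an unadjusted p under 0.05 in edgeR and 0 calls by DESeq2 and limma-voom). On the adjusted p under 0.05 alone, without the size, 6 of 9 members passed (30.3% of all genes). The median log2 value of this difference was 1.60 over the 9 members and -0.0035 over all tested genes. In either direction, 6 of 9 members had an unadjusted p under 0.05 by edgeR in 1% FCS, as did 8340 of all 15178 genes. In 1% FCS LT these were 7 members and 7250 genes, and in the difference of differences 6 members and 6214 genes.

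The change with culture time differed between the genotypes. In Ctsd+/+ cells 6 of 9 members were called lower after 12 weeks than after 10 days (Pdgfra, Pdgfrb, Axl, Pdgfb, Pdgfc and Gas6; 12.3% of all genes) and 0 were called higher (11.0% of all genes), with 0 higher at an unadjusted p under 0.05 in edgeR and 0 calls by either other tool. In Ctsd-/- cells 0 members were called in either direction (1.11% of all genes higher and 0.369% lower). In that comparison 2 members and 2727 of all 15178 genes had an unadjusted p under 0.05 in edgeR, DESeq2 called 1 member higher and limma-voom called 0. Over time in Ctsd+/+ cells 7 members and 8079 genes had such a p. The comparisons share groups. Ctsd+/+ cells in 1% FCS had the low epithelial and high mesenchymal marker levels given above. This group entered the 1% FCS genotype comparison, the comparison of culture times in Ctsd+/+ cells and the difference of the genotype differences. In the last, all 10 epithelial markers were called lower (8.12% of all genes). There 8 of 11 mesenchymal and 4 of 6 tested fibroblast markers were called higher (11.0% of all genes).

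**Figure D2:**
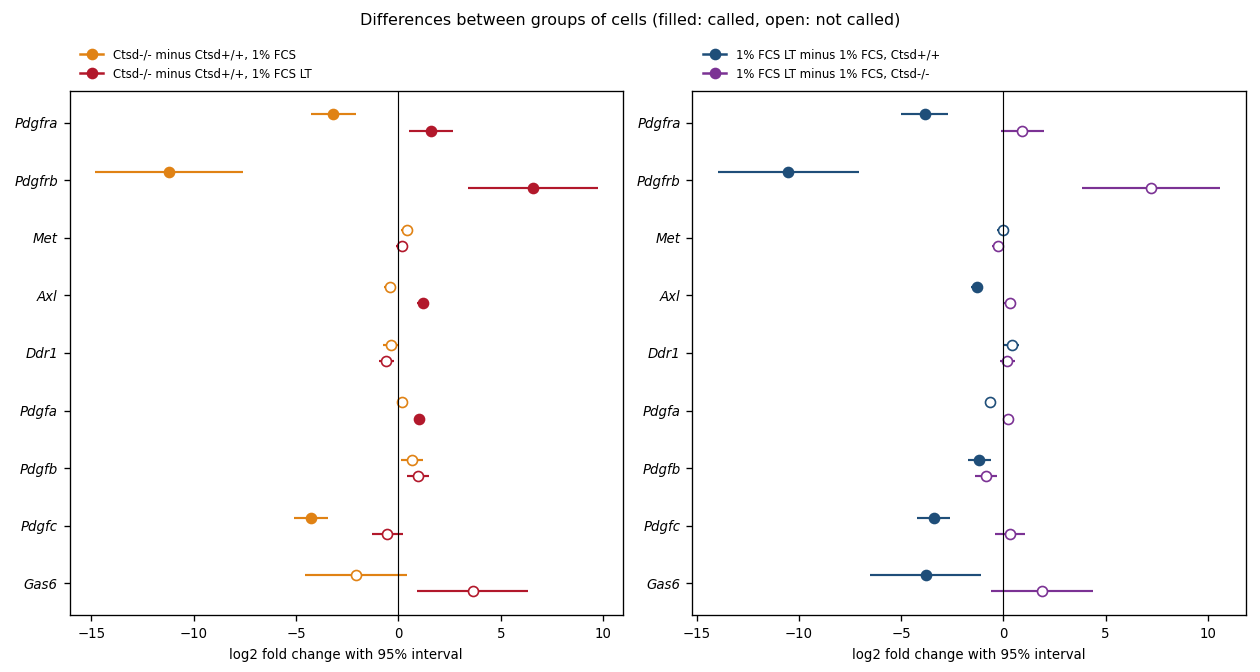
Log2 fold changes of the 9 members tested in cells, with intervals of 1.96 standard errors, which are narrower than 95% intervals of the test. The left panel gives Ctsd-/- minus Ctsd+/+ at each culture time, and the right panel 1% FCS LT minus 1% FCS in each genotype. Filled points were called and open points were not. Pdgfra and Pdgfrb lay below 0 in 1% FCS and above 0 in 1% FCS LT, whereas the intervals of Met and Ddr1 stayed within 1 of 0.

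Pdgfrb, the PDGF receptor that pericytes and fibroblasts are known for, differed most. It was at 552.0, 694 and 159.7 CPM in the 3 samples of Ctsd+/+ cells in 1% FCS, and at 0.389, 0.137 and 0.0296 CPM in Ctsd-/- cells, where these values stand for 16, 5 and 1 counts. The lowest Ctsd+/+ sample thus lay far above the highest Ctsd-/- sample. After 12 weeks Ctsd+/+ cells had 0.027, 0.213 and 0.685 CPM of Pdgfrb (1, 8 and 27 counts). Ctsd-/- cells had 84.9, 3.89 and 0.968 CPM at that time (3548, 151 and 40 counts), so that the genotypes again did not overlap but the Ctsd-/- samples themselves spread widely. Between the genotypes the log2 fold change of Pdgfrb came to -11.2 ± 1.85 (SE, adjusted p = 0.000413) after 10 days and to 6.56 ± 1.62 (adjusted p = 0.00715) after 12 weeks. Its change with time was -10.53 ± 1.77 (adjusted p = 5e-04) in Ctsd+/+ cells and 7.24 ± 1.73 in Ctsd-/- cells, where it missed the threshold (adjusted p = 0.0532). The values after 12 weeks rested largely on Ctsd-/- replicate 1. Without it the genotype difference of Pdgfrb was 2.93 (adjusted p = 0.0372) and the change with time in Ctsd-/- cells 3.60 (adjusted p = 0.153). Limma-voom did not call the later genotype difference (5.21, adjusted p = 0.162). With 1 sample left out, the change with time in Ctsd-/- cells was called in 1 of 6 fits (7.80, adjusted p = 0.0153, without Ctsd-/- replicate 3 in 1% FCS LT), and it was called by DESeq2. Since a low group holds as few as 1 count, the sizes of these values are loosely determined, which the standard errors show, and the difference of differences was 17.76 ± 2.45 (adjusted p = 0.000258).

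Pdgfra, the other PDGF receptor, typical of fibroblasts and other connective tissue cells, moved in the same directions with smaller values. Ctsd+/+ cells in 1% FCS had 74.3, 28.1 and 10.9 CPM of Pdgfra, Ctsd-/- cells in 1% FCS 5.28, 3.59 and 3.61 CPM, Ctsd+/+ cells in 1% FCS LT 1.84, 2.50 and 3.55 CPM, and Ctsd-/- cells in 1% FCS LT 10.6, 6.82 and 6.46 CPM. The genotypes did not overlap at either time. In 1% FCS Pdgfra was 9.06-fold lower in Ctsd-/- cells (log2 fold change -3.18 ± 0.57, adjusted p = 0.000692). After 12 weeks it was 3.02-fold higher (1.59 ± 0.55, adjusted p = 0.0374). The second call did not hold in 5 of 6 fits with 1 sample left out of the 2 groups, in which the log2 value ranged from 1.34 to 1.87, and it was not made by limma-voom (1.60, adjusted p = 0.148). The difference of the genotype differences of Pdgfra, 4.77 ± 0.79 (adjusted p = 0.000886), was called in every fit with 1 sample left out. In Ctsd+/+ cells Pdgfra was 14.3-fold lower after 12 weeks than after 10 days (-3.84 ± 0.59, adjusted p = 0.000259), whereas in Ctsd-/- cells the value was 0.93 ± 0.54 (adjusted p = 0.398).

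Among the ligands, Pdgfc, which signals mainly through PDGFRA, showed one high group. Ctsd+/+ cells in 1% FCS had 128, 246 and 156 CPM of Pdgfc, against 16.0, 5.72 and 5.44 CPM in Ctsd-/- cells, a 19.4-fold lower level (log2 fold change -4.28 ± 0.42, adjusted p = 8.74e-06). The later values for Ctsd+/+ cells were 17.6, 15.2 and 16.8 CPM, and Ctsd-/- cells stood at 14.4, 9.17 and 10.6 CPM. These did not overlap, but the difference did not pass the test (-0.53 ± 0.38, adjusted p = 0.287). The difference of differences was 3.75 ± 0.54 (adjusted p = 0.000373). Pdgfc was lower after 12 weeks in Ctsd+/+ cells (-3.42 ± 0.40, adjusted p = 3.79e-05), while the value in Ctsd-/- cells was 0.33 ± 0.38 (adjusted p = 0.706).

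Pdgfa, the ligand of PDGFRA, was lowest in one group instead. Ctsd+/+ cells in 1% FCS LT had 44.4, 41.5 and 45.7 CPM of Pdgfa, while the other 9 cell samples ranged from 65.3 to 91.0 CPM. At that time Ctsd-/- cells (91.0, 88.6 and 89.3 CPM) were 2.04-fold higher (log2 fold change 1.03 ± 0.11, adjusted p = 2.26e-05). In 1% FCS the genotypes overlapped (0.17 ± 0.11, adjusted p = 0.204). The difference of the genotype differences passed the test at less than the required size (0.86 ± 0.15, adjusted p = 0.00145).

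Pdgfb, which binds both PDGF receptors, had fallen after the long culture in Ctsd+/+ cells, from 47.0, 130.0 and 102 CPM to 42.0, 46.3 and 35.0 CPM (log2 fold change -1.18 ± 0.28, adjusted p = 0.00458). One of the short-culture samples lay close to the long-culture range, and without replicate 2 of that group the size fell under the threshold (-0.85, adjusted p = 0.0213). In Ctsd-/- cells Pdgfb was at 155, 132 and 155 CPM in 1% FCS and at 70.2, 86.8 and 84.7 CPM in 1% FCS LT (-0.87 ± 0.28, adjusted p = 0.122). Ctsd-/- cells lay above Ctsd+/+ cells at both times without overlap, by 0.67 ± 0.28 (adjusted p = 0.0637) and 0.97 ± 0.28 (adjusted p = 0.0156) on the log2 scale, and neither was called. No change of the genotype difference was found (0.30, 1.96 SE interval -0.46 to 1.06).

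A list of 16 related receptors, ligands and activating proteases held 2 further genes of this family. Pdgfd, a ligand of PDGFRB, was at a mean of 12.8 CPM in Ctsd+/+ and 5.00 CPM in Ctsd-/- cells in 1% FCS (log2 fold change -1.35, adjusted p = 0.000713), and at 2.27 and 4.05 CPM in 1% FCS LT (0.83, adjusted p = 0.0183), with a difference of differences of 2.19 (adjusted p = 0.000658). The PDGF receptor-like gene Pdgfrl fell from 4.41 to 0.0527 CPM with time in Ctsd+/+ cells, the latter being 2 counts in each sample.

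Axl was abundant in all cells. Ctsd+/+ cells in 1% FCS had 1538, 1822 and 1849.7 CPM of Axl and Ctsd-/- cells 1167, 1362 and 1448 CPM, a small difference that passed on p and not on size (log2 fold change -0.39 ± 0.15, adjusted p = 0.0493). After 12 weeks the values for Ctsd+/+ cells were 787, 581 and 740.2 CPM, whereas Ctsd-/- cells had 1816, 1467 and 1611 CPM. Every Ctsd+/+ sample after 12 weeks thus lay below every other cell sample. Axl was 2.32-fold higher in Ctsd-/- cells at that time (1.22 ± 0.15, adjusted p = 8.2e-05), it was 2.47-fold lower in Ctsd+/+ cells after 12 weeks than after 10 days (-1.31 ± 0.15, adjusted p = 3.64e-05), and the value in Ctsd-/- cells was 0.30 ± 0.15 between the times (adjusted p = 0.326). The difference of differences was 1.61 ± 0.21 (adjusted p = 2e-04). These calls of Axl held in every fit with 1 sample left out and in every alternative.

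Gas6, the ligand of AXL, varied widely within groups. In Ctsd+/+ cells kept in 1% FCS it was at 148, 15.3 and 1.18 CPM, which spans more than the whole range of Ctsd-/- cells in the same medium (25.3, 7.91 and 5.76 CPM). In 1% FCS LT the values for Ctsd+/+ cells were 2.35, 6.07 and 3.30 CPM, against 109, 28.3 and 8.32 CPM in Ctsd-/- cells, which did not overlap but missed the threshold (log2 fold change 3.63 ± 1.38, adjusted p = 0.0548). That difference was called in 4 of 9 alternatives, such as DESeq2 (3.62, adjusted p = 0.018), and in 1 of 6 fits with 1 sample left out. Limma-voom did not call it. The calls of Gas6 depended on which samples entered. The highest sample of each genotype in 1% FCS was replicate 1, which carries another LR identifier than the rest of its group. The part of the identifier in these levels was not tested. The fall of Gas6 in Ctsd+/+ cells with time (-3.81 ± 1.39, adjusted p = 0.0408, with overlapping groups) was -1.07 (adjusted p = 0.465) without Ctsd+/+ replicate 1 in 1% FCS. The difference of differences (5.70 ± 1.87, adjusted p = 0.038) was 2.96 (adjusted p = 0.158) without that sample, and it was lost in 8 of 12 fits with 1 sample left out. Without the same sample the 1% FCS genotype difference of Gas6 turned from -2.07 to 0.67, neither of which passed the test.

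The close relatives of AXL and GAS6 were Tyro3 and Mertk, receptors of the same family, and Pros1, protein S, another ligand of TYRO3. Pros1 was 3.27 CPM on average in Ctsd+/+ cells in 1% FCS LT (range 2.90 to 3.49) and 37.7 CPM in Ctsd-/- cells (22.0 to 55.3), a log2 fold change of 3.53 ± 0.46 (adjusted p = 0.000108). In 1% FCS it was lower in Ctsd-/- cells, with overlapping groups (-1.35, adjusted p = 0.018), and the difference of differences was 4.87 (adjusted p = 0.00014). Tyro3 averaged 44.3 and 23.7 CPM in Ctsd+/+ and Ctsd-/- cells in 1% FCS and 17.1 and 33.8 CPM in 1% FCS LT, with a difference of differences of 1.88 (adjusted p = 7.5e-06). Mertk averaged 1.40 to 2.72 CPM in the 4 groups and passed no test.

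Met showed little difference between groups of cells. It was at 127, 95.1 and 132 CPM in Ctsd+/+ and at 156, 158 and 155 CPM in Ctsd-/- cells in 1% FCS, and at 137, 109 and 98.0 CPM and 144, 133 and 116 CPM in 1% FCS LT. In 1% FCS the genotypes did not overlap, and the log2 fold change of Met was 0.41 ± 0.15 (adjusted p = 0.0398), under the required size. After 12 weeks they overlapped (0.19, 1.96 SE interval -0.10 to 0.48), and the interval of the difference of differences, -0.63 to 0.19, included 0.

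Hgf was low in the cells and did not pass the filter on low counts. It had 3, 34 and 45 counts in Ctsd+/+ cells in 1% FCS and 7, 7 and 4 counts in 1% FCS LT, against 0, 0 and 3 counts and 1, 0 and 1 counts in Ctsd-/- cells. In CPM the highest sample was at 1.18. A count of 0 in a library allows up to 3 counts, and 7 of the 12 samples had 3 counts or fewer. Fitted without the filter, Hgf was called lower in Ctsd-/- than in Ctsd+/+ cells in 1% FCS (log2 fold change -4.66, adjusted p = 0.000496) and lower after 12 weeks than after 10 days in Ctsd+/+ cells (-2.27, adjusted p = 0.0256), and it was not called between the genotypes in 1% FCS LT (-3.02, adjusted p = 0.0601). The sizes of these values are loosely determined at such counts.

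Of 14 tested genes on the list of relatives, 6 were called higher (10.3% of all genes) and 4 lower (14.6% of all genes) in Ctsd-/- cells in 1% FCS, and 4 were called in 1% FCS LT, all higher (9.24% of all genes). The 6 higher ones in 1% FCS encode proteins that act on HGF or its activation. HGF is cut into its active form by proteases, among them urokinase (Plau), the HGF activator encoded by Hgfac, matriptase (St14) and hepsin (Hpn). Spint1 and Spint2 encode inhibitors of some of these proteases. In 1% FCS St14 averaged 499 CPM in Ctsd-/- and 89.0 CPM in Ctsd+/+ cells (log2 fold change 2.49 ± 0.097, adjusted p = 1.69e-08), Spint1 193 and 37.6 CPM (2.36 ± 0.13, adjusted p = 1.77e-07), and Spint2 329 and 66.9 CPM (2.30 ± 0.16, adjusted p = 6.54e-07). Hpn averaged 2.86 and 0.514 CPM (2.48 ± 0.90, adjusted p = 0.0385). After 12 weeks none of these 4 genes was called in edgeR, although Spint2 passed on p (-0.62, adjusted p = 0.00653). Plau was called higher in Ctsd-/- cells at both times, at 1263 against 159.8 CPM (2.98 ± 0.33, adjusted p = 2.34e-05) and 699 against 202 CPM (1.80 ± 0.32, adjusted p = 0.000928). Hgfac was also called higher at both times, at 5.04 against 0.284 CPM (4.15, adjusted p = 1.02e-05) and 3.47 against 0.489 CPM (2.82, adjusted p = 0.00015). Other proteases on the list did not share this direction. Plat, tissue plasminogen activator, was called lower in Ctsd-/- cells in 1% FCS, at 6.25 against 64.8 CPM (-3.37, adjusted p = 2.14e-05), and Furin overlapped between the genotypes at both times (0.090 and 0.024). The related receptor gene Mst1r and its ligand gene Mst1 had at most 7 counts in any cell sample and were not tested.

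Ddr1 was at 433, 321 and 230 CPM in Ctsd+/+ and at 271, 223 and 265 CPM in Ctsd-/- cells in 1% FCS, which overlapped (log2 fold change -0.37 ± 0.19, adjusted p = 0.128). In 1% FCS LT Ctsd+/+ cells had 437, 433 and 428 CPM of it, against 276, 256 and 335 CPM in Ctsd-/- cells, without overlap and 1.5-fold lower (-0.58 ± 0.19, adjusted p = 0.03), under the size needed for a call. The difference of differences was -0.21 (1.96 SE interval -0.74 to 0.32). Ddr2, the other collagen receptor of this family and one found mainly in mesenchymal cells, fell from 7.35 to 1.13 CPM with time in Ctsd+/+ cells (-2.70 ± 0.71, adjusted p = 0.00856), and the genotypes overlapped at both times.

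The levels of cell type markers also differed between the groups of cells. Of 12 fibroblast markers, 6 passed the filter in cells, and all 6 were called lower in Ctsd-/- than in Ctsd+/+ cells in 1% FCS. Their summed level (all 12 markers) was 987 to 2959 CPM in Ctsd+/+ cells in 1% FCS, 4.76 to 28.6 CPM in Ctsd-/- cells in 1% FCS, 1.46 to 5.02 CPM in Ctsd+/+ cells in 1% FCS LT and 4.62 to 27.2 CPM in Ctsd-/- cells in 1% FCS LT. Col1a1 (mean 1437 CPM) and Postn (213 CPM) made up most of it in the high group. Col3a1 (107 CPM) and Pdpn (47.4 CPM) were also present there and near 0 in Ctsd-/- cells in 1% FCS, and Col14a1 ranged from 0.0523 to 73.5 CPM in the high group. The fibroblast markers Col1a2 (2.27 CPM), Dcn (0.742 CPM) and Fap (0.0289 CPM) were near 0 there and Thy1 had 0 counts in all 12 cell samples. All 10 epithelial markers were called higher in Ctsd-/- than in Ctsd+/+ cells in 1% FCS, and the mesenchymal marker Vim, which encodes vimentin, averaged 3066 CPM in Ctsd+/+ cells in 1% FCS, 9.82 CPM in Ctsd-/- cells in 1% FCS, 3.70 CPM in Ctsd+/+ cells in 1% FCS LT and 451 CPM (38.1 to 809.8) in Ctsd-/- cells in 1% FCS LT. The sum over all 11 mesenchymal markers did not follow Vim in 1% FCS LT. It was 8826 to 13280 CPM in Ctsd-/- cells and 18490 to 27560 CPM in Ctsd+/+ cells. A sum rests mostly on the most abundant markers. As a mean of log2 CPM over the 11 markers the genotypes overlapped, with 2.99 to 4.38 in Ctsd-/- and 3.12 to 3.70 in Ctsd+/+ cells. Between the genotypes 4 of the 11 were called higher and 3 lower at that time (9.24% and 10.1% of all genes). Of 9 pericyte and smooth muscle markers the summed level was 578 to 693 CPM in Ctsd+/+ cells in 1% FCS and 60.8 to 92.5 CPM in Ctsd-/- cells, and 408 to 593 CPM in Ctsd+/+ cells in 1% FCS LT. The last range came from another gene than the first, since in Ctsd+/+ cells Mcam fell with time from 572 to 24.9 CPM (adjusted p = 3.13e-07) while Notch3 rose from 65.7 to 457.6 CPM (adjusted p = 3.67e-05). The part of the cells' make-up or state in the levels of Pdgfra, Pdgfrb and Pdgfc was not tested. In bulk RNA, fewer cells that express a gene and less RNA of it per cell cannot be told apart.

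**Figure D3:**
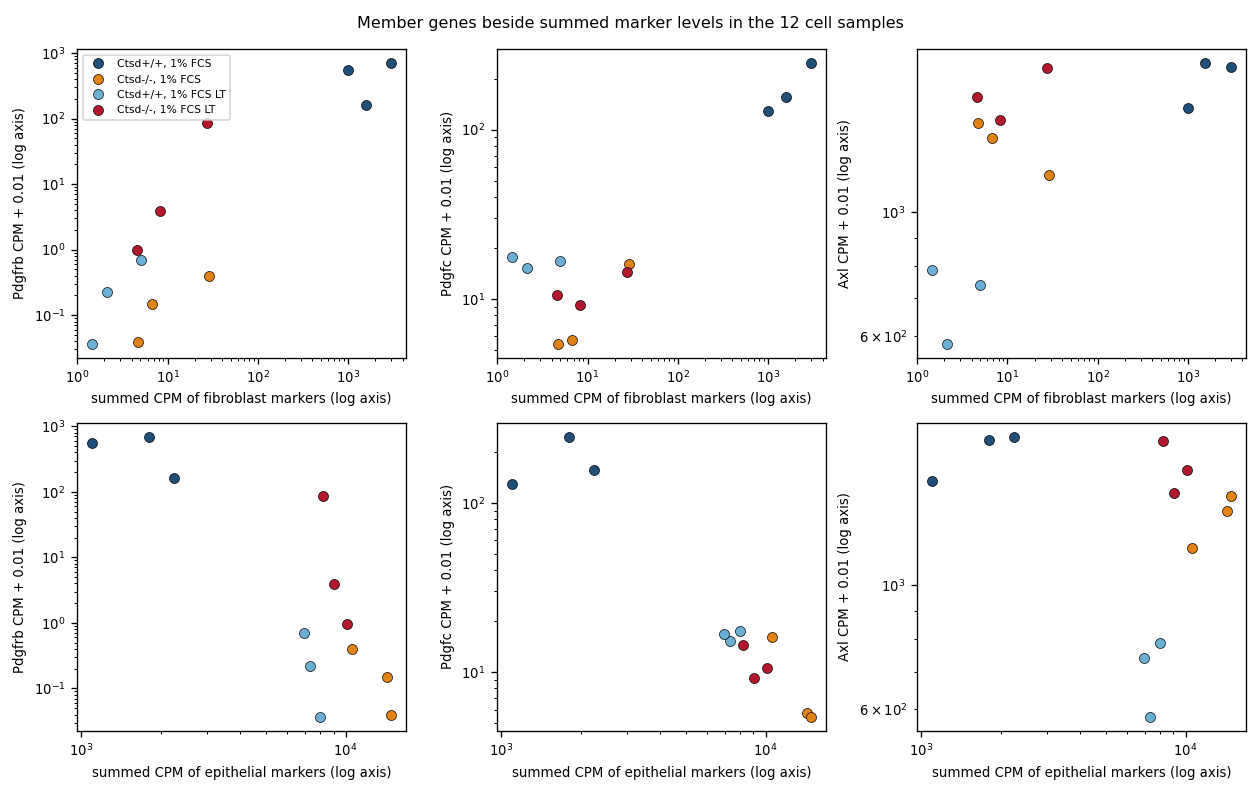
CPM of Pdgfrb, Pdgfc and Axl (with 0.01 added, log axis) against the summed CPM of 12 fibroblast markers (upper row) and of 10 epithelial markers (lower row, log axes) in the 12 cell samples, colored by group. The 3 samples of Ctsd+/+ cells in 1% FCS lie apart at the highest Pdgfrb and Pdgfc and the lowest epithelial levels, whereas Axl was lowest in Ctsd+/+ cells in 1% FCS LT.

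Results within the 8 cell samples that share an LR identifier, 2 per group, were of the same direction for the genes named here. In 1% FCS the log2 genotype difference within them was -2.44 for Pdgfra (adjusted p = 0.00291), -12.23 for Pdgfrb (adjusted p = 0.00203) and -5.17 for Pdgfc (adjusted p = 1.35e-05). In 1% FCS LT it was 2.00 for Pdgfra (adjusted p = 0.00954), 8.49 for Pdgfrb (adjusted p = 0.0103), 1.26 for Axl (adjusted p = 0.0011) and 1.06 for Pdgfa (adjusted p = 0.000971). The genotype difference of Gas6 in 1% FCS LT was 4.02 (adjusted p = 0.0217) within them and was called there. The fall of Gas6 with time in Ctsd+/+ cells was -0.95 (adjusted p = 0.493) within them and was not called. Too few samples (2 each) had either of the other identifiers for a value.

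The next list holds genes of proteins that carry the signal further. Of 25 adaptors and effectors, 4 had a called difference of differences, all above 0 (11.0% of all genes were called above 0), with a median of 0.27 against -0.0035 over all genes. These were the PI3K subunit Pik3cd (4.26 ± 0.36, adjusted p = 8.94e-06), the SRC family kinase Fyn (1.96 ± 0.30, adjusted p = 0.000549), the phospholipase Plcg1 (1.49 ± 0.17, adjusted p = 5.56e-05) and Stat3 (1.26 ± 0.36, adjusted p = 0.0192). In 1% FCS, 3 of the 25 were called, all lower in Ctsd-/- cells (14.6% of all genes; median -0.0062 against 0.00025 over all genes), and in 1% FCS LT 4 were called higher and 1 lower (9.24% and 10.1% of all genes; median 0.22 against 0.015). Plcg1 averaged 123 CPM in Ctsd-/- and 49.0 CPM in Ctsd+/+ cells in 1% FCS LT, and Fyn 62.5 and 14.1 CPM. Pik3r1, a regulatory PI3K subunit, was called lower in Ctsd-/- cells at both times (-1.35, adjusted p = 0.00514, and -1.19, adjusted p = 0.0129).

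Feedback inhibitors limit receptor signaling after its onset. Of 18 on the list, 3 were called higher and 1 lower in Ctsd-/- cells in 1% FCS (10.3% and 14.6% of all genes; median 0.30), and 4 higher and 1 lower in 1% FCS LT (9.24% and 10.1% of all genes; median 0.37). Spred3, an inhibitor of the RAS-ERK cascade, was called higher at both times (1.51, adjusted p = 0.000164, and 2.61, adjusted p = 6.42e-06), as was Grb14, an adaptor that inhibits receptor kinases (1.54, adjusted p = 0.00515, and 2.76, adjusted p = 0.000199). The difference of differences was called above 0 for 2 of 18, Spred3 (1.09, adjusted p = 0.0195) and Lrig3 (1.27, adjusted p = 0.0088), with a list median of 0.29. Of all genes 11.0% were called above 0, which is close to the share of the list.

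Genes that ERK activity is known to induce did not move as one. Of 12, 2 were called higher and 1 lower in Ctsd-/- cells in 1% FCS, where 10.3% and 14.6% of all genes were (median 0.48), and 4 higher and 2 lower in 1% FCS LT, where 9.24% and 10.1% were (median 0.65). Egr1, an early ERK target, was called lower in Ctsd-/- cells at both times, at 12.4 against 132 CPM (-3.41, adjusted p = 1.33e-06) and 9.47 against 103 CPM (-3.44, adjusted p = 2.17e-06). The transcription factor Etv1 was called higher in 1% FCS LT, at 22.3 against 1.63 CPM (3.77, adjusted p = 1.29e-06). Cyclin D1 (Ccnd1) was called higher in 1% FCS (1.98, adjusted p = 1.4e-05), and its difference of differences was -1.11 (adjusted p = 0.012), in the direction opposite to that of Etv1 (3.08, adjusted p = 5.66e-05), Spsb1 (3.08, adjusted p = 4.09e-05) and Etv4 (1.14, adjusted p = 0.0102). The median difference of differences of the list was -0.14.

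In tumors, the question was whether the genes differed between MMTV-cre;Ctsd-/- and control animals. At the unadjusted p under 0.1 that the study used for tumors, Pdgfra and Hgf were called higher (2 of 10 members, where 8.44% of all 18617 tested genes were) and Pdgfc was called lower (1 of 10, where 8.27% of all genes were). At an adjusted p under 0.05, 0 members passed, as did 0.00537% of all genes, and 0 members had an unadjusted p under 0.05 in edgeR, DESeq2 or limma-voom. Of all 18617 genes, 1665 had an unadjusted p under 0.05 in edgeR. In all 10 genes the 2 groups of tumors overlapped. The median log2 fold change was 0.27 over the members and 0.00073 over all genes.

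Pdgfra was at 20.1, 23.6, 7.28 and 10.9 CPM in control tumors and at 18.6, 16.8, 35.5 and 38.0 CPM in MMTV-cre;Ctsd-/- tumors (log2 fold change 0.82 ± 0.41, adjusted p = 0.578). The high values came from MMTV-cre;Ctsd-/- replicates 3 and 4, and the other replicates lay within the control range. Hgf was at 1.10, 0.911, 1.33 and 1.19 CPM in control and at 1.22, 1.18, 2.74 and 2.41 CPM in MMTV-cre;Ctsd-/- tumors (0.74 ± 0.39, adjusted p = 0.59). The same 2 tumors were the high ones. Pdgfc was at 70.8, 82.3, 67.4 and 81.9 CPM in control tumors and at 80.9, 52.0, 49.5 and 34.3 CPM in MMTV-cre;Ctsd-/- tumors (-0.48 ± 0.25, adjusted p = 0.59), of which 3 of 4 lay below all control tumors. Each of the 3 calls was lost in 4 to 6 of 8 fits with 1 tumor left out, with log2 values from 0.58 to 1.10 for Pdgfra, 0.50 to 0.91 for Hgf and -0.74 to -0.31 for Pdgfc.

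The other members did not pass in tumors. Pdgfrb was at 38.7, 33.3, 9.15 and 9.03 CPM in control tumors. In MMTV-cre;Ctsd-/- tumors it was at 15.4, 30.1, 44.6 and 51.8 CPM (0.65, 1.96 SE interval -0.39 to 1.70, adjusted p = 0.696). Control replicates 3 and 4, low in Pdgfrb and Pdgfra, had the largest shares of reads not counted on genes, 32.5% and 32.7%. The other tumors had 24.7% to 28.8%. Control replicates 3 and 4 also had the lowest summed levels of fibroblast markers (1137 and 1360 CPM) and of endothelial markers (60.9 and 64.1 CPM) of all tumors. Their sums of pericyte and smooth muscle markers (329 and 236 CPM) lay within the range of the other tumors. The part of these differences in the levels was not tested. Axl (0.42, interval -0.21 to 1.05) and Pdgfb (0.49, interval -0.28 to 1.27) had similarly wide intervals. The values of Met (0.0047, interval -0.35 to 0.36), Gas6 (0.024, interval -0.60 to 0.65), Pdgfa (0.033, interval -0.44 to 0.51) and Ddr1 (0.12, interval -0.47 to 0.72) lay near 0. Pdgfa shares 26.1% of its exon bases with an antisense gene, and counts of the tumors do not separate strands, so that reads of both cannot be told apart there.

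Markers of other cell types differed between the tumors as well. All 8 adipocyte markers had p under 0.1 and were higher in MMTV-cre;Ctsd-/- tumors, with a summed level of 3440 to 24040 CPM against 541 to 5707 CPM, and so were 6 of 8 endothelial markers, with 83.6 to 384 CPM against 60.9 to 139 CPM. MMTV-cre;Ctsd-/- replicates 3 and 4, in which Pdgfra and Hgf were high, had the highest sums of both lists. Of the 12 fibroblast markers 1 was called higher and 1 lower (1137 to 4105 CPM in control and 2178 to 3465 CPM in MMTV-cre;Ctsd-/- tumors), and of the 9 pericyte and smooth muscle markers likewise 1 each. With the mean adipocyte marker level as a covariate, Pdgfra was -0.20 (adjusted p = 0.964), Hgf 0.17 (adjusted p = 0.972) and Pdgfc -0.27 (adjusted p = 0.933), and none of the 3 was called. Adipocyte markers and genotype move together in these 8 tumors, and their parts cannot be told apart.

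**Figure D4:**
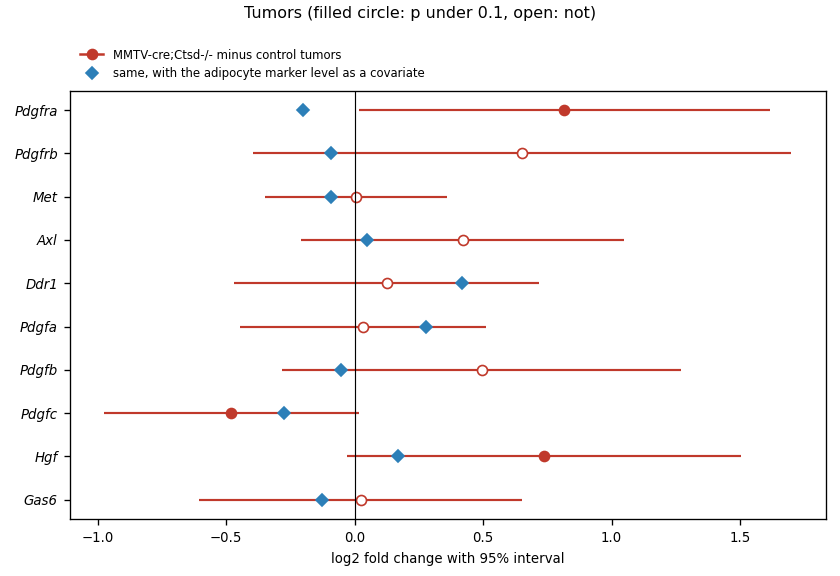
Log2 fold change between MMTV-cre;Ctsd-/- and control tumors for the 10 members with intervals of 1.96 standard errors (circles, filled where the unadjusted p was under 0.1). Diamonds give the same value with the mean adipocyte marker level as a covariate. The intervals are narrower than 95% intervals of the test. That of Pdgfra held only positive values although its unadjusted p in edgeR was 0.0728. With the covariate Pdgfra moved from 0.82 to -0.20, and Hgf from 0.74 to 0.17.

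In the other pathway lists in tumors, 3 of 15 tested relatives were called higher and 1 lower (median -0.030), 4 of 25 adaptors and effectors higher and 2 lower (median 0.16), 5 of 18 feedback inhibitors higher and 2 lower (median 0.10), and 1 of 12 ERK output genes higher (median 0.080). Of all genes 8.44% were called higher and 8.27% lower. The lowest unadjusted p-values were those of Ddr2 (1.09 ± 0.38, adjusted p = 0.526) among the relatives, of the PI3K subunit Pik3ca (0.51, adjusted p = 0.555) among the adaptors, and of the RAS GTPase activator Rasal1 (0.70, adjusted p = 0.544) among the inhibitors. None had an adjusted p under 0.05.

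Which genes were most like each member over the 12 cell samples is given as Pearson's r of log2 CPM. The samples fall into 4 groups and the values are descriptions only. Pdgfrb was most like Gata2 (r = 0.977), Fam20c (0.969) and Lix1l (0.968). Pdgfra was most like Gm10575 (0.98), Sptbn1 (0.972) and 1700020I14Rik (0.97), and Pdgfc most like Gulp1 (0.982), Gpr153 (0.979) and Fbln5 (0.977). Axl was most like Dmwd (0.977), Timm21 (0.968) and Spsb1 (0.966), the last being on the list of ERK output genes. Met had no gene above 0.875 (Anks1b). Among the members the highest values were 0.91 between Pdgfra and Pdgfrb, 0.859 between Axl and Pdgfa, and 0.838 between Pdgfrb and Pdgfc, and the lowest was -0.827 between Pdgfb and Ddr1.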

How the data were processed

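RNA of 8 tumors and 12 cell samples was sequenced on an Illumina instrument. Reads were cleaned with Trimmomatic and aligned by STAR to GRCm38/mm10 by the authors, who deposited unnormalized counts per Ensembl gene, regardless of strand and for each strand. The STAR version and the annotation release are not given in the sources used here. Multimapping and ambiguous reads were not counted, which lowers genes with close paralogs or overlapping neighbors. The opposite strand held 97.1% to 97.3% of stranded counts in cells, whose opposite-strand counts were analysed, and 52.8% to 53.7% in tumors, whose counts regardless of strand were analysed. Symbols came from GENCODE M21, in which 45143 of 45706 identifiers were found.

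Counts were filtered with filterByExpr, scaled with TMM and tested with the two-sided quasi-likelihood test of edgeR 4.0.16 in R 4.3.3, with p-values adjusted by Benjamini-Hochberg over every tested gene (18617 in tumors and 15178 in cells). The 12 cell samples entered 1 fit. Standard errors were derived from the F statistic, and intervals span 1.96 standard errors to either side. These intervals are narrower than 95% intervals of the edgeR test. For Pdgfra in tumors the interval was 0.016 to 1.617, with an unadjusted p of 0.0728 in edgeR. For Axl over time in Ctsd-/- cells it was 0.0055 to 0.594, with an unadjusted p of 0.0697. At these p-values a 95% interval of the test would span both signs. RPKM uses the union of exons. The study itself used limma. Replicate spread, as edgeR's common biological coefficient of variation, came to 0.429 for tumors and 0.217 for cells. Scripts were tested on simulated data with 200 changed genes, at an adjusted p under 0.05. There edgeR found 10% of 2-fold and 64% of 4-fold changes in tumors, and 39% and 86% in cells. False calls made up 6.33% of its calls in tumors and 3.85% in cells. For limma-voom these shares were 5.48% and 4.69%, and for DESeq2 25.5% and 23.2%. DESeq2 1.42.0, limma-voom (limma 3.58.1), another scaling, other filters, the other strand forms, the LR identifier, marker covariates, the replicate number as a block and leaving out each sample were alternatives.

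Members, lists and tests were chosen with earlier results of these data known. Named were all 10 members, relatives and markers of any value, and from each other list up to 3 called genes per comparison with the largest change (in tumors the smallest p), taken over the difference of differences, both genotype comparisons and the tumors. Likeness used log2 CPM with 0.1 added. No 2 replicates agreed within sampling noise. In 1% FCS the deviations of same-numbered replicates of the genotypes had correlations of 0.373, 0.106 and 0.317. Replicate 2 of Ctsd-/- cells was more like replicate 3 of Ctsd+/+ cells, however. Between the culture times of Ctsd-/- cells the correlations were 0.192, 0.0888 and 0.174, each the best match. In 1% FCS the labels tie the numbers to nothing but, for replicate 1, a shared LR identifier.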

Additional observations from a re-analysis of the deposited data

Results flagged for a closer look

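The genotype difference between Ctsd-/- and Ctsd+/+ cells changed between 1% FCS and 1% FCS LT for 6 of the 9 tested members, at an adjusted p under 0.05 of the difference of the differences in edgeR, which 30.3% of all 15178 tested genes had. Its log2 value was 17.76 for Pdgfrb, 4.77 for Pdgfra, 3.75 for Pdgfc, 1.61 for Axl and 0.86 for Pdgfa. For Gas6 it was 5.70, which was lost in 8 of 12 fits with 1 sample left out. Pdgfrb spread widely among the Ctsd-/- samples in 1% FCS LT, from 0.968 to 84.9 CPM, with the highest value in replicate 1.

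In the 22 sets of 4 tumors (10 members and Ctsd in both groups) no tumor stood apart from the others by Dixon's 95% limit. Groups of 3 cell samples were not checked in this way.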

How the results depend on the processing

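The alternatives other than leaving out 1 sample at a time included the fit of the 8 cell samples of 1 LR identifier. Over these alternatives, 459 of the members' values kept their direction and side of the threshold, 16 lost and 8 gained the threshold and 12 changed sign. Hgf in cells is not among these. With 1 sample left out these were 346, 34, 7 and 17. Among the cells, the calls of Axl, of Pdgfrb in 1% FCS, and of Pdgfra and Pdgfc in 1% FCS and over time in Ctsd+/+ cells held in each alternative run.

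In tumors the members called higher were 1 with limma-voom, 1 without a filter, 1 with the fibroblast markers as a covariate, and 0 with the adipocyte markers as a covariate, which also left 0 called lower. Leaving out 1 tumor gave 0 to 3 called higher and 0 to 1 called lower. In 1% FCS LT DESeq2, no filter, the 8 samples of 1 LR identifier and the LR identifier as a covariate each called 5 members higher, with Gas6 added. Limma-voom called 2 members higher there (Axl and Pdgfa, not Pdgfra and Pdgfrb), and the 8 samples of 1 LR identifier gave 1 called lower. This was Hgf (-3.60, adjusted p = 0.036), which passed the filter in that subset and not among the 12 samples. In Ctsd-/- cells over time DESeq2, no filter, the 8 samples of 1 LR identifier and the LR identifier as a covariate each called 1 higher (Pdgfrb), and leaving out 1 sample 0 to 1.

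Met in tumors was -0.0047 with DESeq2, -0.0045 with DESeq2 size factors, -0.092 with the adipocyte and -0.046 with the fibroblast covariate, and -0.081 to 0.082 with 1 tumor left out. Met over time in Ctsd+/+ cells was 0.12 in the 8 samples of 1 LR identifier, 0.078 with the LR identifier as a covariate and -0.19 to 0.065 with 1 sample left out. With the adipocyte covariate Pdgfra in tumors was -0.20, Pdgfrb -0.092, Pdgfb -0.053 and Gas6 -0.13. With the fibroblast covariate Pdgfa was -0.046 and Gas6 -0.087. With 1 tumor left out the range was -0.13 to 0.34 for Ddr1, -0.13 to 0.13 for Pdgfa and -0.18 to 0.42 for Gas6. With 1 cell sample left out it was -2.99 to 0.67 for Gas6 in the 1% FCS genotype comparison and -0.028 to 0.63 for the difference of differences of Pdgfb. The causes were not tested.

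With the replicate number as a block, 0 members were called higher in tumors, where Pdgfra was 0.87 and Hgf 0.65, both with an unadjusted p over 0.1. In cells the block removed the calls of Gas6 over time in Ctsd+/+ cells (-2.12, adjusted p = 0.123) and in the difference of differences (3.60, adjusted p = 0.0838), and changed no other call of a member.

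Depth limits the values of Hgf and Pdgfrb in cells, whose low groups hold 0 to 27 counts per sample. Over all genes in tumors, 1572 higher and 1540 lower calls became 2703 and 2734 without a filter and 794 and 726 with the adipocyte covariate, and lower calls became 711 with the block and 850 with the fibroblast covariate. Over time in Ctsd-/- cells, 169 higher and 56 lower calls became 394 and 106 with DESeq2, 383 and 92 without a filter and 456 and 101 with the LR covariate, and higher calls became 405 in the 8 samples of 1 LR identifier. With 1 sample left out they ranged from 980 to 2156 higher and 827 to 2309 lower in tumors, and from 27 to 233 higher and 20 to 58 lower over time in Ctsd-/- cells. No other scaling moved the median of all genes by 0.1 or more.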
